A study of Zea mays with 6 samples.

Results

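A small set of maize gene loci was expressed in the endosperm of the mutant smk8-ref and listed below 1 FPKM in every wild-type (WT) library. FPKM divides the sequenced fragments of a transcript by its length and by the total of the library. The set holds 21 of the 36781 loci in the deposited table (0.0571%). A locus was taken when its summed FPKM was at least 2 in each of the 3 smk8-ref libraries and below 1 in each of the 3 WT libraries. It also had to lie on a numbered chromosome, outside an interval near the start of chromosome 4, and carry no name beyond an identifier. No locus was turned away by these further conditions. The levels in both genotypes therefore chose the set, and their difference is given as a description with no test.

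The study compared endosperm RNA, sampled 12 days after pollination, between kernels of the smk8-ref mutant (3 libraries) and wild-type kernels (3 libraries), to find the genes whose level differs between the genotypes. smk8-ref is the name the labels give to the mutant allele. The sources used here do not state the genetic background of each genotype, the affected gene or the number of ears or plants behind a library. The design text speaks of biological repeats. Where these do not come from separate ears, a p-value measures only the spread between these libraries.

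The endosperm is the tissue of the maize kernel that stores starch and protein, and at this age its starchy cells are filling. It also holds an aleurone layer, a basal transfer layer and a region around the embryo, each with genes of its own. The embryo and the maternal seed coat lie against it and can come along in dissection. In RNA from a whole tissue, a gene that few cells express strongly and a gene that all cells express weakly give the same low value, so fewer cells of a type and less RNA per cell cannot be told apart. The table gives the 21 loci no name and no description, and the RefSeq gene table matched 0 of the locus identifiers, so no role is stated for any of them.

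The libraries were of similar size in FPKM, with sums of 294002 to 305360 in smk8-ref and 287260 to 321002 in WT, and their read depth is unknown. Loci at 1 FPKM or more numbered 15625, 15988 and 15942 in smk8-ref and 14350, 14920 and 15312 in WT. Every smk8-ref library thus had more such loci than any WT library, and the part of this in the gains was not tested. These counts were taken without rescaling. Scale factors from a trimmed mean of log ratios between libraries (TMM) ran from 0.916 in smk8-ref replicate 2 to 1.21 in WT replicate 1. Where 3 values of a genotype are given, they stand in the order of replicates 1 to 3. WT replicate 3 stood apart from the other WT libraries in markers of the embryo. Of a list of 15 names for embryo, meristem and oil body, 4 were found by name: OBAP1A, OBAP2A, OBAP2B and KN-1. They summed to 89.1, 59.1 and 77.6 FPKM in smk8-ref. In WT they summed to 20.7, 26.2 and 68.0 FPKM. None of the 4 passed the limma test of single genes described below. The part of embryo RNA in the gains described here was not tested. Of the starchy endosperm and storage list 1 of 18 names was found by name, PPDK2, a pyruvate phosphate dikinase. It stood at 1475 to 2023 FPKM in smk8-ref and 2259 to 2904 FPKM in WT. Listed genes that carry another name or none were not looked up. The aleurone receptor kinase gene CR4 stood at 9.24 to 10.4 FPKM in smk8-ref and 7.24 to 8.93 FPKM in WT. The embryo-surrounding genes ESR1 and ESR3 summed to 0.909 to 8.51 FPKM in smk8-ref and 4.73 to 6.39 FPKM in WT, and ESR3 passed the test as lower in smk8-ref (limma adjusted p = 0.043). The leaf gene RBCS, which encodes the small subunit of Rubisco, was at 0.239 FPKM or less in every library, while the plastid gene psbA, listed with it, was at 154 to 194 FPKM in smk8-ref and 127 to 138 FPKM in WT. No gene of the basal transfer layer list was analysed by name.

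The gained loci reached modest levels. Their mean in smk8-ref ran from 2.10 to 16.4 FPKM with a median of 3.10 FPKM, and 16 of 21 lay below 5.202 FPKM, the median level of all tested loci in smk8-ref. Tested loci were the 15858 with at least 1 FPKM in at least 3 of the 6 libraries, and all 21 gained loci passed that filter through their smk8-ref values alone. In WT the means ran from 0 to 0.895 FPKM with a median of 0.522 FPKM. Together the 21 loci made up 0.0434%, 0.0257% and 0.0246% of the FPKM sum in smk8-ref, and 0.00238%, 0.00339% and 0.00352% in WT. The ratio of mean FPKM, smk8-ref over WT, could be taken for 20 of the loci and ran from 3.33 to 115 with a median of 6.21.

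**Figure D1:**
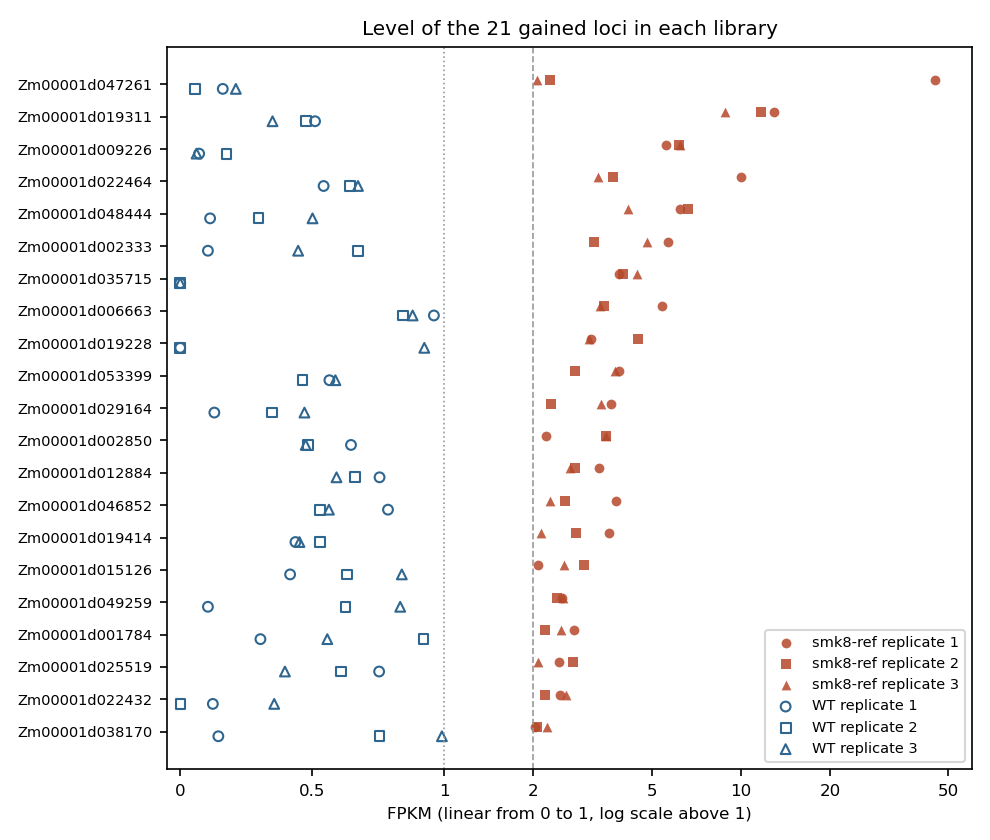
FPKM of each gained locus in the 3 smk8-ref libraries (filled) and the 3 WT libraries (open), ordered by the smk8-ref mean; the axis is linear up to 1 and logarithmic above, and the dotted and dashed lines mark the limits of 1 and 2 FPKM. Most smk8-ref values lie between 2 and 7 FPKM, with smk8-ref replicate 1 of Zm00001d047261 at 44.9 FPKM far to the right.

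Zm00001d019311 was high for this set in all 3 smk8-ref libraries, with a coefficient of variation of 18.7% over them, the median of the set. It lies on the plus strand of chromosome 7, from 26986391 to 26993625. It stood at 12.9, 11.7 and 8.87 FPKM in smk8-ref, and at 0.511, 0.477 and 0.350 FPKM in WT. The means were 11.2 ± 2.08 FPKM in smk8-ref and 0.446 ± 0.0850 FPKM in WT (SD, n = 3 each), a ratio of 25.0. All 3 smk8-ref libraries were high, and the WT libraries were alike.

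Zm00001d009226, on the minus strand of chromosome 8 from 44498799 to 44501231, had smk8-ref libraries that lay closer together. Its values were 5.57, 6.17 and 6.22 FPKM in smk8-ref, against 0.0717, 0.175 and 0.0620 FPKM in WT. The ratio of means was 58.1, with a coefficient of variation of 6.01% over the smk8-ref libraries. Without WT replicate 2, the highest WT library here, the ratio was 89.6.

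Zm00001d048444 (chromosome 9, 156574867 to 156576575, minus strand) had 6.22, 6.61 and 4.17 FPKM in smk8-ref and 0.113, 0.297 and 0.501 FPKM in WT. It is the only gained locus that overlaps another locus of the table, Zm00001d048443 on the opposite strand, and use of the strand in counting is not stated. Reads from the stretch that both loci cover cannot then be told apart, and the length of that stretch is not given here. The ratio of means was 18.6.

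Some loci were at or near 0 in some or all WT libraries. Zm00001d035715 (chromosome 6, 42372035 to 42377076, plus strand) was listed at 0 in all 3 WT libraries and stood at 3.88, 3.999 and 4.46 FPKM in smk8-ref. It was the single gained locus listed at 0 throughout WT, and no ratio is given for it. The smk8-ref libraries differed little, with a mean of 4.11 ± 0.305 FPKM (SD, n = 3).

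Zm00001d022432 (chromosome 7, 177634512 to 177639698, plus strand) stood at 2.46, 2.19 and 2.57 FPKM in smk8-ref and at 0.124, 0.00127 and 0.356 FPKM in WT. The ratio of means was 15.0, and 38.5 without WT replicate 3, the highest of the WT libraries at this locus. Zm00001d019228 (chromosome 7, 22845582 to 22847553, minus strand) had 3.12, 4.51 and 3.07 FPKM in smk8-ref. In WT it was listed at 0 in replicates 1 and 2 and at 0.925 FPKM in replicate 3. Its WT mean thus comes from WT replicate 3 alone.

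Zm00001d002333 (chromosome 2, 10501219 to 10506639, plus strand) stood at 5.69, 3.20 and 4.84 FPKM in smk8-ref, against 0.105, 0.674 and 0.447 FPKM in WT. Zm00001d029164 (chromosome 1, 60874573 to 60876557, plus strand) stood at 3.65, 2.29 and 3.38 FPKM in smk8-ref, against 0.129, 0.349 and 0.471 FPKM in WT. At both loci WT replicate 1 was the lowest library, and the ratios of means were 11.2 and 9.81.

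At a pair of loci a single smk8-ref library carried much of the mean. Zm00001d047261 (chromosome 9, 124760891 to 124766137, plus strand) had the highest smk8-ref mean of the set, 16.4 FPKM, from values of 44.9, 2.28 and 2.05 FPKM in smk8-ref. The WT libraries were at 0.161, 0.0552 and 0.211 FPKM. smk8-ref replicate 1 was 21.9 times as high as replicate 3, so the SD of 24.7 FPKM exceeded the mean. The ratio of means was 115 over all libraries and 15.2 without smk8-ref replicate 1.

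Zm00001d022464 (chromosome 7, 178202555 to 178202923, plus strand), a short locus of 369 bases, stood at 10.02, 3.71 and 3.29 FPKM in smk8-ref and at 0.543, 0.643 and 0.674 FPKM in WT. Its ratio of means was 9.15, and 5.65 without smk8-ref replicate 1. Its WT libraries were alike, so the spread lay within smk8-ref. A locus just outside the set had the same order of libraries in smk8-ref: Zm00001d008200 had 13.6, 5.91 and 5.26 FPKM in smk8-ref and was kept out by WT replicate 3, at 0.445, 0.315 and 1.02 FPKM in WT.

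Replicate 1 of smk8-ref was the highest smk8-ref library at 11 of the 21 gained loci (52.4%). It was the highest at 26.5% of the 8911 other tested loci with a mean over all libraries in the same range, 1.28 to 8.28 FPKM. Among the 20 gained loci with a value above 0 in WT, WT replicate 3 was the highest WT library at 10 (50%), against 46.9% of the loci of like level, and WT replicate 1 was the lowest at 10 (50%), against 39.6%. These shares describe libraries and carry no test, since low levels in WT were part of the choice. The median coefficient of variation over the smk8-ref libraries was 18.7% for the gained loci and 17.2% for the loci of like level.

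The remaining 11 gained loci had smk8-ref means of 2.10 to 4.08 FPKM and ratios of means of 3.33 to 6.44. Zm00001d006663 (chromosome 2, 213805344 to 213811979) came nearest to being expressed in WT in all libraries, with 5.43, 3.46 and 3.35 FPKM in smk8-ref and 0.961, 0.844 and 0.881 FPKM in WT. Zm00001d053399 (chromosome 4, 229326856 to 229336149), the longest of the set at 9294 bases, had 3.88, 2.76 and 3.78 FPKM in smk8-ref and 0.565, 0.464 and 0.588 FPKM in WT. Both were low but measured in every WT library.

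Zm00001d049259 (chromosome 4, 23413468 to 23419096) was the least variable in smk8-ref, at 2.50, 2.41 and 2.52 FPKM, a coefficient of variation of 2.47%. In WT it ran at 0.105, 0.626 and 0.834 FPKM, so the spread lay within WT. Zm00001d002850 (chromosome 2, 24662753 to 24665050) had 2.20, 3.50 and 3.50 FPKM in smk8-ref and 0.647, 0.484 and 0.476 FPKM in WT. Here smk8-ref replicate 1 was the lowest smk8-ref library and WT replicate 1 the highest WT library.

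The other 7, Zm00001d012884, Zm00001d046852, Zm00001d019414, Zm00001d015126, Zm00001d001784, Zm00001d025519 and Zm00001d038170, had means of 2.91, 2.87, 2.83, 2.52, 2.47, 2.41 and 2.10 FPKM in smk8-ref and of 0.670, 0.626, 0.473, 0.630, 0.594, 0.587 and 0.630 FPKM in WT, in that order. Zm00001d015126, at 321 bases, was the shortest locus of the set. The ratio of Zm00001d038170 was the lowest of the set, at 3.33.

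Transcripts were listed singly for 12 of the 21 gained loci (57.1%), against 38.6% of all tested loci. The median span of a gained locus was 3525 bases, against 4224 for tested loci, and 2 of 21 (9.52%) spanned under 1000 bases, against 8.07%. The other 9 gained loci had 36 transcripts between them. At 7 of these 9 the same transcript led in all 3 smk8-ref libraries, as it did at 67.5% of 9732 other tested loci with several transcripts. At 5 of the 9 the leading transcript by mean was the same in smk8-ref and WT, against 82.2% of the other loci, where the WT leader of a gained locus rests on values under 1 FPKM.

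At Zm00001d019311 the gain comprised a transcript not listed above 0 in WT. Transcript Zm00001d019311_T002 stood at 9.54, 8.19 and 5.64 FPKM in smk8-ref and was listed at 0 in all 3 WT libraries. It held 69.8% of the locus mean in smk8-ref. The shorter Zm00001d019311_T003, whose listed start lies within the longer transcript, stood at 3.398, 3.46 and 3.23 FPKM in smk8-ref and 0.511, 0.477 and 0.350 FPKM in WT, and held all of the WT level.

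Zm00001d002333 showed the same kind of pattern. Its transcript Zm00001d002333_T007 stood at 3.60, 1.76 and 3.22 FPKM in smk8-ref and was listed at 0 in all WT libraries, and it held 62.5% of the smk8-ref mean. With the single transcript of Zm00001d035715, these were the 3 transcripts of the set listed at 0 throughout WT and at 1 FPKM or more throughout smk8-ref. StringTie divides reads among overlapping transcripts, so a value of 0 for a transcript is a listed estimate.

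At Zm00001d047261 the excess of smk8-ref replicate 1 was in several transcripts. The leading transcript Zm00001d047261_T012 stood at 34.9, 1.92 and 1.32 FPKM in smk8-ref and held 77.7%, 84.2% and 64.1% of the locus in them. Zm00001d047261_T003 stood at 5.14, 0.0833 and 0.235 FPKM in smk8-ref. At Zm00001d053399, by contrast, transcript Zm00001d053399_T004 held 89.7% of the smk8-ref mean and 54.0% of the WT mean, while Zm00001d053399_T002 was at 0.254 FPKM in smk8-ref and 0.232 FPKM in WT. At Zm00001d012884 the level was spread over 5 transcripts with a value in smk8-ref, and the leading one, Zm00001d012884_T006, held 32.8% of the smk8-ref mean and 82.0% of the WT mean.

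**Figure D2:**
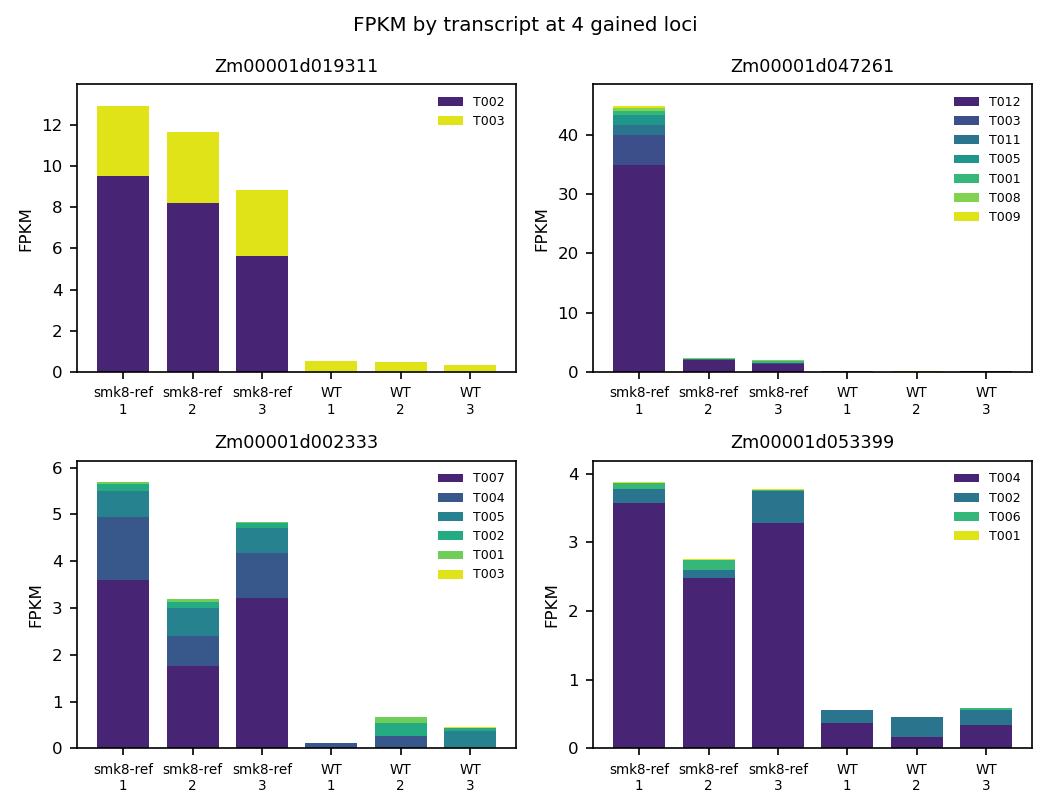
Stacked FPKM of the transcripts of 4 gained loci in each smk8-ref and WT library, each colour being 1 transcript by the end of its identifier. Zm00001d019311 and Zm00001d002333 have a leading transcript (T002 and T007) that is listed at 0 in all WT bars, and Zm00001d047261 has 44.9 FPKM in smk8-ref replicate 1 and about 2 FPKM in the other smk8-ref libraries.

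The gained loci were scattered over 9 of the 10 numbered chromosomes. Chromosome 7 held 5 of 21 (23.8%), against 8.08% of the tested loci on numbered chromosomes, chromosome 2 held 4 and chromosome 9 held 3, and chromosome 3 held none. Of 216 windows of 10 Mb with tested loci, 19 held a gained locus and 2 held 2, both on chromosome 7, at 20 to 30 Mb and at 170 to 180 Mb. No gained locus had another within 3 places in locus order, so the set holds no tandem neighbours.

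The closest pair, Zm00001d022432 and Zm00001d022464, lay 0.563 Mb and 31 places apart, with 15 tested loci between them. Of these 15, 1 passed limma as higher in smk8-ref and 4 as lower, against 3.39% and 4.21% of all tested loci. The loci between were not tested as a group. The loci Zm00001d019228, Zm00001d019311 and Zm00001d019414 lay in succession on the same chromosome, with gaps of 4.14 and 5.85 Mb. In these gaps 3 of 21 and 1 of 27 tested loci passed limma in either direction, against 7.60% of all tested loci.

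Neighbouring loci were chosen by position among the tested loci outside the set, not by their difference between genotypes. The limma test can be read on them, though the filter of at least 1 FPKM in at least 3 libraries did use their values. For each gained locus the nearest tested locus on each side was taken, which gave 42 flanking loci at a median gap of 80.3 kb (0.523 to 1112 kb). Of these 5 passed an adjusted p of 0.05 in limma (11.9%), against 7.60% of all tested loci. The 3 that were higher in smk8-ref made 7.14%, against a background of 3.39%, and the 2 that were lower made 4.76%, against 4.21%. The libraries did not overlap at 9 flanking loci that were higher in smk8-ref (21.4%, against 18.7% of tested loci) and at 9 that were lower (21.4%, against 15.9%). The median log2 difference of the 42, smk8-ref minus WT on the log2(FPKM + 1) scale, was 0.09, against 0.05 for all tested loci.

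Few flanking loci lay close. Of the 10 within 5 kb of a gained locus, 0 passed the adjusted test in limma, with a lowest adjusted p of 0.057. As 7.60% of all tested loci passed, 0 of 10 says little about close neighbours. Their log2 differences lay between -0.57 and 0.71. The lowest was that of Zm00001d012883, which passed the filter of tested loci through its WT values alone, so its own p is no evidence of a difference. An unadjusted p under 0.05 was found for 5 of these 10, against 33.3% of the 42 flanking loci and 28.3% of all tested loci. Zm00001d012883 is counted among them, so nothing is read from the 5 of 10. An example is Zm00001d022433, 0.523 kb from Zm00001d022432, which stood at 48.5, 47.9 and 48.7 FPKM in smk8-ref and at 75, 56.6 and 67.8 FPKM in WT (log2 difference -0.44, adjusted p = 0.090 in limma). The lower mean in smk8-ref stands beside a gained locus on the same strand. The opposite direction was found at Zm00001d022465, 4.145 kb from Zm00001d022464 and also on its strand. It averaged 4.10 FPKM in smk8-ref and 2.16 FPKM in WT (log2 difference 0.71, adjusted p = 0.062 in limma).

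Among the flanking loci that rose was Zm00001d019306, 46.4 kb before Zm00001d019311 on chromosome 7 (26934723 to 26940001). It stood at 32.7, 26.8 and 15.2 FPKM in smk8-ref and at 5.64, 10.2 and 6.20 FPKM in WT, a log2 difference of 1.61 ± 0.32 (SE, limma adjusted p = 0.035). As at Zm00001d019311, smk8-ref replicate 1 was the highest and smk8-ref replicate 3 the lowest of the smk8-ref libraries. The locus on the other side, Zm00001d019312, stood at 4.998, 3.90 and 4.38 FPKM in smk8-ref and 0.0907, 2.27 and 4.19 FPKM in WT, so that the value of WT replicate 3 fell inside the smk8-ref range (log2 difference 1.03, limma adjusted p = 0.25).

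Zm00001d049252, 478 kb from Zm00001d049259 on chromosome 4, rose to 14.5, 10.01 and 8.47 FPKM in smk8-ref, against 3.58, 2.86 and 2.43 FPKM in WT (log2 difference 1.58 ± 0.22, SE, limma adjusted p = 0.020). Zm00001d046838, 175 kb from Zm00001d046852 on chromosome 9, averaged 20.1 ± 1.31 FPKM in smk8-ref and 11.3 ± 2.14 FPKM in WT (SD, n = 3 each; limma adjusted p = 0.037). The flanking loci that fell were Zm00001d006667, at 29.1 ± 3.98 FPKM in smk8-ref and 52.8 ± 1.11 FPKM in WT (limma adjusted p = 0.022), and Zm00001d022463, at 106 ± 4.10 FPKM in smk8-ref and 168 ± 3.43 FPKM in WT (limma adjusted p = 0.025). Each of the 5 lost its call in 4 to 8 of 14 alternatives to the limma fit. No flanking locus passed without smk8-ref replicate 1, smk8-ref replicate 2 or WT replicate 1, where 0.240%, 0.177% and 0.240% of all tested loci passed. In these fits 14, 11 and 12 flanking loci had an unadjusted p under 0.05 (33.3%, 26.2% and 28.6%), against 21.7%, 21.9% and 21.8% of all tested loci.

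**Figure D3:**
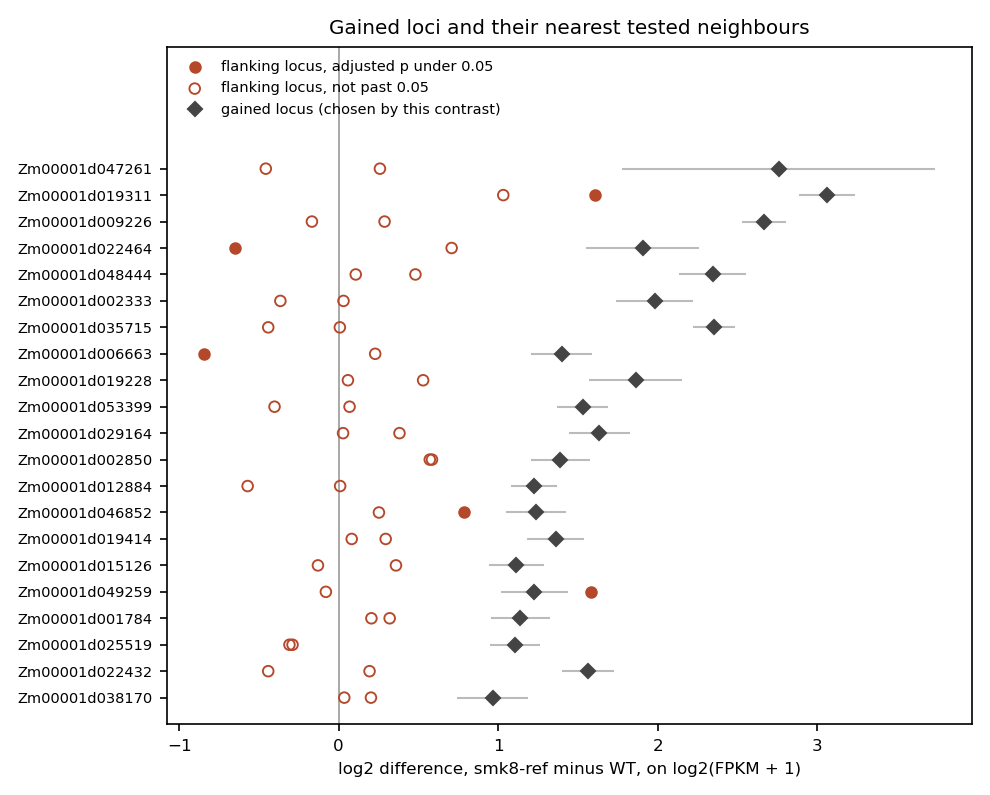
Log2 difference, smk8-ref minus WT, of each gained locus (diamonds, with SE) and of its nearest tested neighbour on each side (circles, filled where the adjusted p in limma was under 0.05). The flanking loci lie around 0, with a median of 0.09, and Zm00001d019306 and Zm00001d049252 reach 1.61 and 1.58.

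The limits of the rule fell within a continuous range of values. Just inside the WT limit were Zm00001d038170, Zm00001d006663 and Zm00001d019228, with highest WT values of 0.992, 0.961 and 0.925 FPKM. Just outside it were Zm00001d021168, Zm00001d038810 and Zm00001d008200, at 1.01, 1.01 and 1.02 FPKM. Just inside the smk8-ref limit were Zm00001d038170, Zm00001d047261 and Zm00001d015126, with lowest smk8-ref values of 2.03, 2.05 and 2.07 FPKM, and just outside it Zm00001d037404, Zm00001d022092 and Zm00001d029028, at 1.91, 1.87 and 1.81 FPKM.

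WT replicate 3 set the size of the list. Without it 93 loci met the rule, since 72 loci were kept out by that library alone. Their medians were 3.38, 2.52 and 2.97 FPKM in smk8-ref and 0.570, 0.749 and 1.69 FPKM in WT, and 25 of the 72 were at 2 FPKM or more in WT replicate 3. The other WT libraries kept out 11 (replicate 1) and 9 (replicate 2) loci, and smk8-ref replicates 1 to 3 kept out 3, 11 and 22. WT replicate 3 is also the WT library with the highest sum of embryo, meristem and oil-body markers, 68.0 FPKM, and their part in these 72 loci was not tested.

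**Figure D4:**
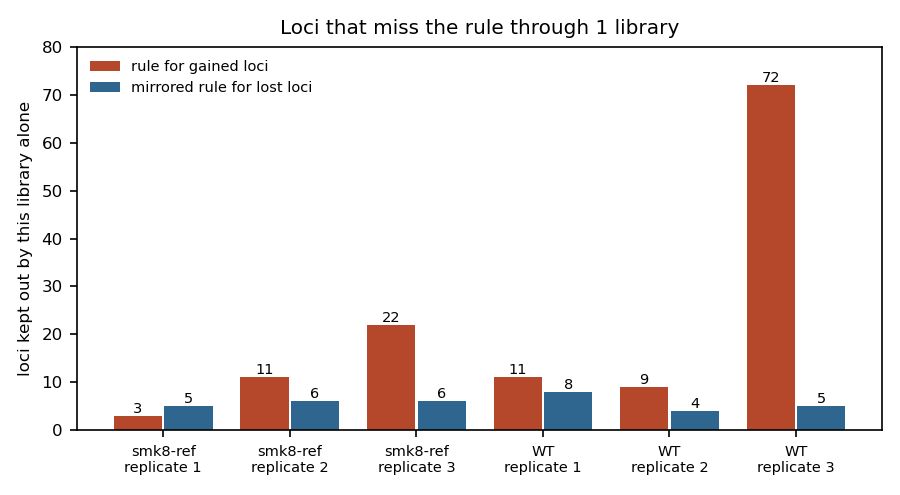
Number of loci that met the rule in 5 libraries and failed it in the library named on the axis, for the rule for gained loci and for the mirrored rule for lost loci. WT replicate 3 alone kept 72 loci out of the gained set, against 3 to 22 for each other library, while 4 to 8 loci were kept out of the lost set by each library.

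The same limits with the genotypes exchanged gave 9 lost loci (0.0245% of all loci), at 2 FPKM or more in every WT library and below 1 FPKM in every smk8-ref library. They were chosen by the same contrast and carry no test. The 3 with the highest WT means were Zm00001d007966, Zm00001d001857 and Zm00001d030694. Zm00001d030694 was at 0.0263, 0.0128 and 0.005 FPKM in smk8-ref, against 5.61, 7.46 and 4.79 FPKM in WT. Zm00001d001857 was at 0.416 FPKM in smk8-ref replicate 1 and listed at 0 in the others, against 6.10, 7.74 and 7.43 FPKM in WT. Zm00001d007966 averaged 0.442 ± 0.0571 FPKM in smk8-ref and 9.95 ± 3.73 FPKM in WT (SD, n = 3 each). The median log2 difference was 1.53 for the gained loci and -1.91 for the lost loci. Of the 10 Mb windows 3 held both a gained and a lost locus. The 21 gained loci outnumbered the 9 lost ones, but the numbers were 93 and 14 without WT replicate 3 and 32 and 17 without WT replicate 1.

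Most loci with a large ratio were outside the set. Of 256 tested loci whose ratio of means was at least that of the lowest gained locus, 236 were not in the set, 180 of them because a WT library reached 1 FPKM and 56 because a smk8-ref library stayed below 2 FPKM. A ratio of at least 10 was found for 29 tested loci, of which 7 were gained. Of the 21 gained loci 20 passed limma, Zm00001d047261 being the exception, against a background of 3.39% higher. The rule used the same contrast, so nothing is read from that count.

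**Figure D5:**
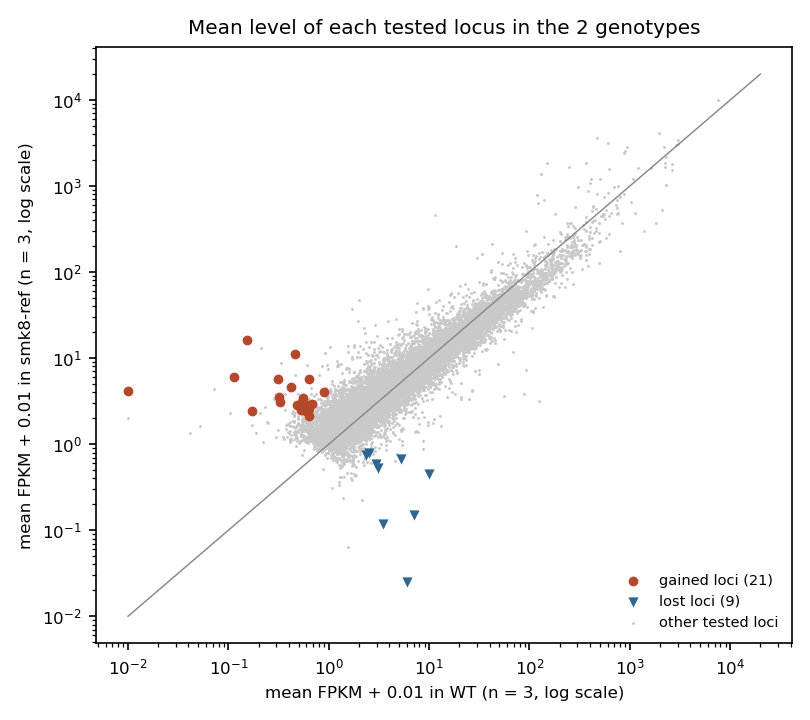
Mean FPKM plus 0.01 of the tested loci in smk8-ref (vertical) and WT (horizontal), both on log scales with n = 3 each; the line marks equal means. The 21 gained loci lie at the low end of the WT axis, with smk8-ref means of 2.10 to 16.4 FPKM, and the 9 lost loci at the low end of the smk8-ref axis.

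The authors' deposited table marks 19 of the 48 transcripts of gained loci as up (39.6%) and none as down, against 2.53% marked up in the whole of the authors' deposited table. These marks come from the same libraries and are no independent evidence. At 5 gained loci, Zm00001d001784, Zm00001d012884, Zm00001d015126, Zm00001d038170 and Zm00001d049259, the authors' deposited table marks no transcript as up. The smallest q-value among the gained transcripts in the authors' deposited table was 0.404, which is the smallest in that table.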

How the data were processed

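Per the submitters' processing notes, the authors used HISAT to align reads across introns and StringTie to estimate transcript levels. The sources used here do not state versions, settings or genome build; coordinates are those of the deposited table. The authors deposited FPKM values for 86771 transcripts in 6 libraries. The deposited table also holds the authors' linear fold change (a ratio), log2 fold change, p-value and q-value per transcript, whose model is not stated.

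Transcript FPKM values were summed by locus, the part of the identifier before the transcript number. Loci with at least 1 FPKM in at least 3 libraries were tested with limma 3.58.1 in R 4.3.3 on log2(FPKM + 1), with a variance trend, two-sided, Benjamini-Hochberg adjustment over 15858 loci and a threshold of 0.05. This scale understates changes of low genes. The procedure was also run on simulated data with independent normal noise, where only loci above a set mean level were changed. That run cannot speak for loci at low levels, and no call here rests on it. No count test was run, since FPKM values hold no depth, and no counting interval is given. The members, lists and tests were chosen with earlier results of these data known. Named were all gained loci, the loci nearest to each limit, the flanking loci past the threshold and the 3 highest lost loci. Zm00001d019312, Zm00001d022433, Zm00001d022465 and Zm00001d012883 were named after their values were seen. Alternatives changed the limits, the scaling, the pseudocount, the filter, the replicate block and the libraries included. No sequence is shown, since a genome of the table's coordinates was not used here.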

Additional observations from a re-analysis of the deposited data

How the results depend on the processing

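The number of gained loci followed its limits. It was 5 with a WT limit of 0.5 FPKM, 3 with a smk8-ref limit of 4 FPKM and 24 to 93 with 1 library left out. A rule over fewer libraries can only keep or add loci. After rescaling each library to the same sum as TPM values have, it was 35, of which 3 were among the 21. TPM sums are larger than the FPKM sums here, so this rescaling raised every value while the limits stayed at 1 and 2. The count of 35 therefore reflects lower limits in FPKM as well as the scaling. The lost loci numbered 3 with either stricter limit and 13 to 17 with 1 library left out. The limma calls numbered 1205 (538 higher, 667 lower) and 36 with the replicate block, 388 with no filter and 28 to 1425 with 1 library left out; TMM scaling, done without weights, gave 304 higher and 808 lower, and without WT replicate 3 there were 885 higher and 540 lower. Of the flanking loci 5 passed, 0 with the replicate block (13 at an unadjusted p under 0.05, or 31.0%, against 26.8% of all tested loci), 2 with no filter and 0 to 4 with 1 library left out. With no filter 36781 loci were tested; the cause of the other losses was not tested. Same-numbered libraries correlated in their deviations at 0.00694, -0.00850 and 0.0830, and not every library correlated best with its own number. With 3 libraries per genotype, these values cannot settle whether replicate numbers pair the samples. Rescaling to the mean FPKM sum, added after the data were seen, gave 25 gained loci, all 21 among them. The rule itself was not run with TMM scaling, so its count under TMM is not known. TMM multiplied values by 1.21 in WT replicate 1 and by 0.916 and 0.924 in smk8-ref replicates 2 and 3. Loci near a limit, such as Zm00001d006663 and Zm00001d047261, do not meet the rule under these factors. The log2 differences of the gained loci kept their sign in all 252 values recomputed, which the choice of loci fixes when a library is left out; 61 moved by more than the spread between replicates, all with another pseudocount or TPM scaling. Levels under 1 FPKM in WT limit every ratio given.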
